A study of Mus musculus with 6 samples.

Results

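Cytoplasmic ribosomal proteins were read in embryonic mouse back skin by 106 probe sets for 50 genes, out of 45037 probe sets on the array. They were chosen by name, as probe sets that list 1 gene whose symbol in the platform annotation begins with Rpl or Rps and a number, or is Rpsa, Rplp0, Rplp1 or Rplp2, without pseudogenes (-ps) and the Rps6k kinases. Of the 50 genes, 22 encode proteins of the large subunit and 21 of the small subunit, 6 are paralogues of subunit proteins, and 1, Rps19bp1, encodes a binding protein of Rps19 that the naming rule takes in. No probe set of Rplp1 met the rule. A further 110 probe sets name a ribosomal protein together with another gene and were not counted as members. They name 46 ribosomal protein genes, 31 of which have no probe set of their own among the members.

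Total RNA came from back skin at E15.5 (strain C57BL6/129 mixed). The series compared 3 samples of Fzd6 +/- embryos (control) with 3 of Fzd6 -/- embryos (knockout), on Affymetrix arrays that read a transcript through sets of short probes. Fzd6 encodes a Frizzled receptor of planar cell polarity. Every embryo carries at least 1 mutant copy of Fzd6, and no wild-type skin was compared here. The samples are labelled as biological replicates, and the sources used here do not say how many embryos went into each, so p-values measure the spread between these samples. Values are RMA expression values on the log2 scale, and a difference is knockout minus control.

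The ribosome joins a small subunit, which reads the messenger RNA, to a large subunit, which forms the peptide bond, and its proteins are needed in near equal amounts. Their messenger RNAs are among the most abundant of any cell and typically begin with a run of pyrimidines, the 5′ terminal oligopyrimidine tract, through which their translation follows nutrient and growth signals. In mouse skin, mutations in Rps19 and Rps20 are known to darken the skin through p53 in keratinocytes. Ribosomal protein genes have many processed pseudogenes, which makes short probes for them prone to read more than 1 locus.

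The start sites are shown first, because the pyrimidine tract is a feature that the naming rule did not use. Each line gives 30 bases of RefSeq sequence (GRCm38.p6), from 12 before the annotated start to 18 from it on, 5′ to 3′ on the strand of the gene. Capitals mark a run of at least 5 bases, each C or T, that begins with C within 5 bases of the annotated start. The genes are some of those described further on, picked to show both kinds of start and so not a measure of how common the tract is, together with Rpl38, a protein of the large subunit known for its role in patterning of the axial skeleton.
Rps9, chr7:3704029-3704058, plus strand: gccttgtCTCTCTTTgtctcgggcctgagt
Rps24, chr14:24490666-24490695, plus strand: gcgctggggtCCTTCCTTgcgcgttgatat
Rps6, chr4:86857350-86857379, minus strand: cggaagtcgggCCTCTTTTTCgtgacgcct
Rps10, chr17:27635227-27635256, minus strand: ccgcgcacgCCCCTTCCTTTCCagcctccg
Rpl35, chr2:39005114-39005143, minus strand: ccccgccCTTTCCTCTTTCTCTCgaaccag
Rpl38, chr11:114668568-114668597, plus strand: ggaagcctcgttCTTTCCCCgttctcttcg
Rps3, chr7:99483692-99483721, minus strand: gcaagggtcgccgcgctgcgcggcgtcatt
Rplp0, chr5:115559455-115559484, plus strand: ttcgggtttcgaggaccgcctggttctcct
Rpl22, chr4:152325714-152325743, plus strand: gccctgggaaaagcaatagctggccgatcg
Rpsa, chr9:120127754-120127783, plus strand: ggttatttaaggacgtcatttccggccgcc
Rps16, chr7:28350677-28350706, plus strand: gcttctgtcgtgacgtagcactcaatgcgc
Rps4x, chrX:102189374-102189403, minus strand: aggctgggcggagcaacccaggctccagcg
Rps3, Rplp0, Rpl22, Rpsa, Rps16 and Rps4x have no such run near the annotated start, which may lie away from the base where transcription begins.

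Of the 50 genes, 44 had an entry in the promoter table, 38 of them for subunit proteins. At the first listed start, the tract was present in 18 of the 38 subunit genes (47.4%) and in 4989 of all 27025 genes in the table (18.5%), with a median length of 9 and 6 bases. Over the 300 bases around the start, on either strand, CCGGAAG stood in 19 of the 38 (50%) against 9.12% of all genes. GGGCGG stood in 21 (55.3%) against 35.9%. TATAAA was found in 4 (10.5%) against 14.2%, CCAAT in 11 (28.9%) against 37.9%, and ATGGCGGC in 1 (2.63%) against 2.38%. A further motif that was searched, longer than these and not spelled out here, stood in 4 of the 38 (10.5%) against 0.496% of all genes. None of the motifs searched contains another. The motifs and the definition of the tract were chosen after expression values had been seen. The windows held a median of 57.3% G and C in subunit genes and 52.7% in all genes, and the shares were not matched for this. A match of letters is a description of the sequence and not evidence of a bound factor.

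The targeted gene was read in all samples first, as a check of the labels. The dimmest of 3 Fzd6 probe sets was at 6.22, 6.09 and 6.09 in controls 1 to 3 and at 5.49, 5.53 and 5.36 in knockouts 1 to 3, so the groups did not overlap. The brightest was at 9.38 ± 0.23 and 8.93 ± 0.19 (SD, n = 3), without overlap either, and the remaining one differed by -0.0097. Whether any of these probes lies within the deletion is not stated in the labels. Markers of keratinocytes (8 of 8 measured, summed log2 level 96.2 to 101.8 by array) and dermal fibroblasts (8 of 8, 96.0 to 102.2) were bright on every array. Keratinocyte markers had a higher knockout mean in 7 of 8 (median difference 0.25), and macrophage markers a lower one in 7 of 7 (-0.12). Of all 18193 genes, 9528 lay higher and 8665 lower. The groups overlapped in the summed level of both lists. It ran from 96.2 to 99.3 in controls and 97.4 to 101.8 in knockouts for keratinocytes. For macrophages it ran from 55.5 to 58.5 and from 55.6 to 57.5, with control 2 the lowest array. Mast cell markers (6 of 6 measured, 6 higher) had a summed log2 level of 50.9 to 54.7 in controls and 55.7 to 56.6 in knockouts, melanocyte markers (6 of 6, 6 higher) of 45.3 to 46.1 and 46.0 to 48.7, and proliferation genes (11 of 12, 11 lower) of 116.7 to 118.3 and 115.2 to 116.4. Their part in the values of ribosomal proteins was not tested. Array medians lay between 5.99 and 6.03.

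Ribosomal protein messenger RNA did not differ detectably between knockout and control skin. None of the 106 probe sets passed limma's adjusted p of 0.05 over all 45037 probe sets (smallest adjusted p among members = 0.909), and the share of all probe sets that passed was also 0%. The dimmest Fzd6 probe set, with a difference of -0.67, did not pass either (limma adjusted p = 0.864). Failing this threshold thus does not show that a transcript was unchanged. Taking 1 probe set per gene, that with the highest mean, the knockout mean was above the control mean in 21 genes and below it in 29, and the median difference was -0.0085. The median over all 18193 genes was 0.0070. The difference was under 0.05 in size in 40 of the 50 genes (80%) and in 31.5% of all genes. These shares were not matched for level, and 25 of the 50 genes were read by a probe set with a mean above 14. A change in transcript can give a smaller change in signal there, which was not tested. The higher share thus does not show that the messenger RNAs were steadier. The 95% confidence interval of limma lay wholly within 0.2 of zero in 22 of the 50, so for the other 28 a difference of that size remains within the error.

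**Figure D1:**
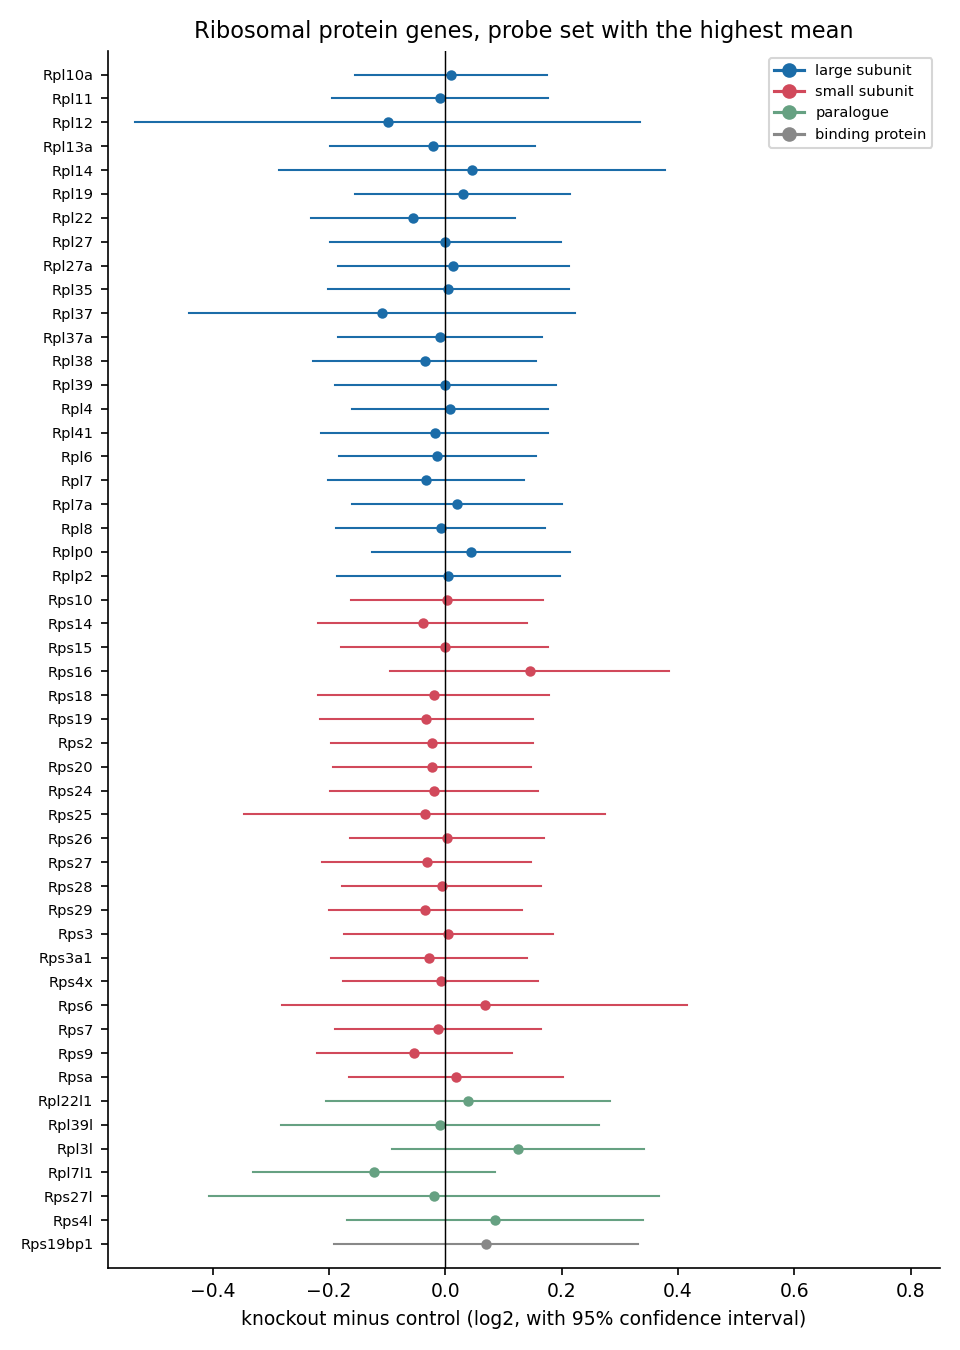
Knockout minus control (log2, x axis) for the 50 ribosomal protein genes, each by its probe set with the highest mean; points are differences and lines 95% confidence intervals from limma over 3 arrays per group, coloured by role. All intervals cross 0, and the widest are those of Rpl12 (-0.53 to 0.33) and Rps27l (-0.41 to 0.37).

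At an unadjusted limma p under 0.05, 2 of the 106 probe sets stood out, 1 higher and 1 lower, where 5.21% of all probe sets did (2.58% higher and 2.63% lower). Control and knockout arrays were fully separated in 7 member probe sets, 2 higher and 5 lower, or 6.60% of them. Among all probe sets 11.6% were separated, 6.55% higher and 5% lower. The share separated and lower was 4.72% of the members, near the 5% of all probe sets. At an unadjusted limma p under 0.01, the member share of 0.943% (1 probe set) lay above the 0.797% of all probe sets. These shares rest on few probe sets and were not matched for level, so they are not read as a result about the members. With the replicate number as a block, which let 3 probe sets of the array pass (0.00666%), no member passed (smallest adjusted p = 0.335).

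In the large subunit, 11 of 22 genes lay higher and 11 lower in the knockout (median -0.0040). Rplp0, the core of the acidic stalk that recruits elongation factors, was at 14.21, 14.20 and 14.14 in controls 1 to 3 and at 14.24, 14.24 and 14.20 in knockouts 1 to 3. The difference was 0.044 (-0.13 to 0.21), and knockout 3 lay below controls 1 and 2. Its partner in the stalk, Rplp2, read 14.38 ± 0.088 in controls against 14.38 ± 0.048 in knockouts (0.0053, -0.19 to 0.20). Rpl12, which sits at the base of that stalk, ran from 8.91 to 9.34 in controls and from 8.62 to 9.23 in knockouts. Its difference of -0.099 came with an interval of -0.53 to 0.33, and knockout 1 was the lowest of the 6 arrays.

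Rpl22, an RNA-binding protein of the large subunit, was read by 3 probe sets that differed from one another. The brightest was at 14.02 ± 0.059 and 13.97 ± 0.019 (-0.055, -0.23 to 0.12). A dimmer one, at 11.31, 11.13 and 11.13 in controls 1 to 3 and 11.20, 10.90 and 10.81 in knockouts 1 to 3, gave -0.22 (-0.50 to 0.060, limma adjusted p = 0.909). Its groups overlapped through knockout 1, which lay above controls 2 and 3. The remaining probe set gave 0.021 (-0.20 to 0.25).

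In the small subunit, 6 of 21 genes lay higher and 15 lower. The median was -0.019, and the mean of the list varied between arrays of a group with an SD of 0.039. Rpsa, the protein also described as a laminin receptor precursor, was at 14.34 ± 0.078 and 14.36 ± 0.031 (0.019, -0.17 to 0.20). Rps6, the substrate of the S6 kinases, was at 10.85, 10.40 and 10.45 in controls 1 to 3 and at 10.84, 10.48 and 10.59 in knockouts 1 to 3. The difference was 0.068 (-0.28 to 0.42), and the replicate 1 arrays were the highest of both groups. Rps16, whose single probe set lay at 3.43 and 3.58, below the array medians, gave 0.14 (-0.095 to 0.38) and was among the largest positive values at a level where little signal is read.

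Rps9, a protein at the entry of the messenger RNA channel, held the widest contrast of the family, and it did not follow genotype. Its _x_at probe set was at 13.07, 7.60 and 12.65 in controls 1 to 3 and at 12.78, 7.79 and 8.05 in knockouts 1 to 3. Control 1, control 3 and knockout 1 were thus high and the other three arrays low, with both kinds in both groups. The range of 5.47 on the log2 scale was the 10th widest of the 45037 probe sets, and the difference of -1.56 had an interval of -5.67 to 2.54 (limma adjusted p = 0.947). The brightest probe set of Rps9 was at 13.99, 13.96 and 13.94 in controls and 13.89, 13.94 and 13.90 in knockouts, a range of 0.094. Its groups did not overlap in unrounded values, yet the difference of only -0.053 (-0.22 to 0.11) was small. The dimmest probe set was at 8.05, 8.02 and 8.01 in controls and 7.59, 7.94 and 7.87 in knockouts (-0.23, -0.48 to 0.015), also without overlap, with knockout 1 the lowest.

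The high and low arrays of this _x_at probe set divided only in part as the sex-linked transcripts did. Xist, which silences an X chromosome in females, reached 13.27 in control 2 and 13.20 in knockout 3. The remaining arrays lay between 5.42 and 6.14. The Y-linked Eif2s3y was low in the same pair, at 3.51 and 3.65, and between 9.33 and 9.65 in the remaining arrays. Control 2 and knockout 3 were both low in the Rps9 probe set, at 7.60 and 8.05. Knockout 2, also low there, was at 5.56 for Xist and 9.33 for Eif2s3y. The part of sex in the Rps9 values was not tested.

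**Figure D2:**
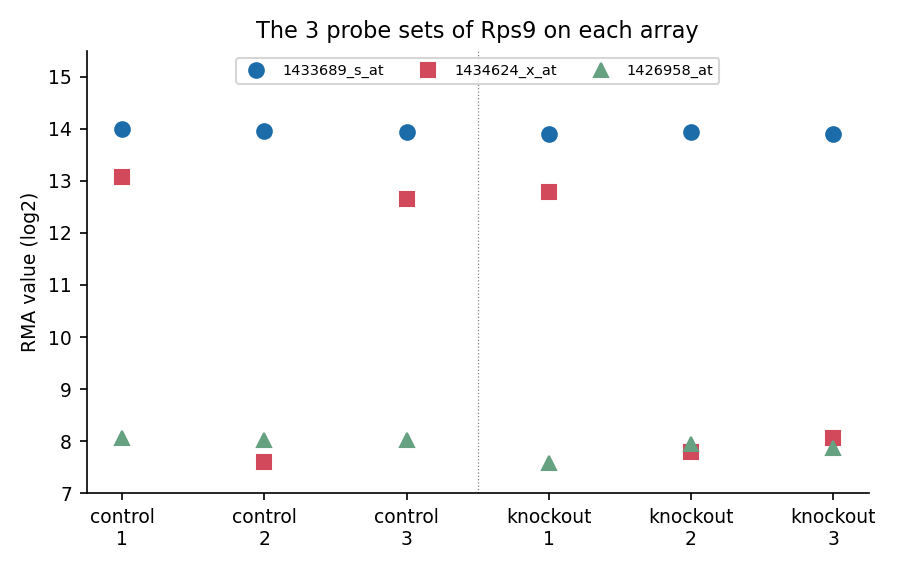
RMA values (log2, y axis) of the 3 Rps9 probe sets on each of the 6 arrays (x axis); each point is 1 array. The _x_at probe set lies between 12.65 and 13.07 on control 1, control 3 and knockout 1 and between 7.60 and 8.05 on the other arrays, while the brightest probe set stays within 0.094.

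The steadiest reading of the family lay at the other extreme. The brightest probe set of Rps10, a small subunit protein involved in the response to collided ribosomes, was at 14.26, 14.25 and 14.25 in controls 1 to 3 and 14.28, 14.25 and 14.25 in knockouts 1 to 3. Its range of 0.028 was the 2nd narrowest of all 45037 probe sets. For signals this bright a change in transcript can show as a smaller change in signal, which was not tested here. Steadiness there need not mean steadiness of the messenger RNA. Of the 124 probe sets with a mean above 14 on the whole array, 38 were members (30.6%). The median SD within groups of those 38 was 0.048, and that of all 124 was 0.045. For member probe sets between 7 and 10 it was 0.13, against 0.16 for all probe sets of that level.

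Probe sets of the same gene disagreed widely in level for some genes and little for others. Of the 50 genes, 24 had more than 1 probe set, and Rpl35, Rps10, Rps18 and Rps24 had 6 each. For Rpsa they lay at 14.3 and 3.53, for Rps18 between 4.67 and 14.4, for Rpl35 between 5.14 and 14.3, for Rps24 between 5.67 and 14.3, and for Rps3 between 5.41 and 14.01. These were the 5 genes with the widest spread in level. By contrast, the probe sets of Rps14 lay 0.031 apart, and those of Rps28 and Rps27l spanned 0.15 and 0.18. In all, 16 member probe sets of 13 genes lay below 7. Those with a mean below 7 differed between genotypes by -0.24 to 0.28, and those above 14 by -0.039 to 0.044. Names ending in _x_at, given by the manufacturer to sets with probes that also match other sequences, belonged to 40 of the 106 members.

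Rps24, whose messenger RNA is known to be spliced in several ways at its end, had the smallest unadjusted p of the family. One of its 6 probe sets was at 8.95, 8.89 and 8.88 in controls 1 to 3 and 8.72, 8.50 and 8.58 in knockouts 1 to 3. All knockout arrays lay below all controls, and the difference was -0.31 (-0.51 to -0.11, limma adjusted p = 0.909). At an unadjusted p under 0.01, it was the only member, where 0.797% of all probe sets reached that. Its brightest probe set gave -0.019 (-0.20 to 0.16), and the other four lay between 0.0049 and 0.076, so the lower value was not shared by the rest of the gene's probe sets.

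Rps3, which lines the entry of the messenger RNA channel, showed the opposite sign in a dim probe set. It was at 5.19, 5.18 and 5.42 in controls 1 to 3 and 5.59, 5.43 and 5.63 in knockouts 1 to 3. All knockouts lay above all controls, with knockout 2 just above control 3. The difference was 0.28 (0.046 to 0.52, limma adjusted p = 0.909). Its brightest probe set, with a mean of 14.01 over the 6 arrays, gave 0.0054 (-0.17 to 0.18). A probe set of Rps6 at 4.23 and 4.40 also lay higher without overlap (0.18, -0.0072 to 0.36), and it too was below the array medians.

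Among the dim probe sets, that of Rps10 spread most within groups. It was at 6.68, 6.99 and 7.27 in controls 1 to 3 and 6.32, 6.98 and 6.91 in knockouts 1 to 3, a difference of -0.24 (-0.73 to 0.25). The groups overlapped, with the replicate 1 array lowest in both. The other five probe sets of Rps10 gave -0.049 to 0.0035. Without overlap, and with small differences, lay also the brightest probe sets of Rpl7 (-0.034, -0.20 to 0.13) and of Rps29 (-0.034), both lower in the knockout. The other probe sets of Rps29 gave 0.0012 and 0.022, and those of Rpl7 -0.036 and -0.013, all with overlapping groups.

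**Figure D3:**
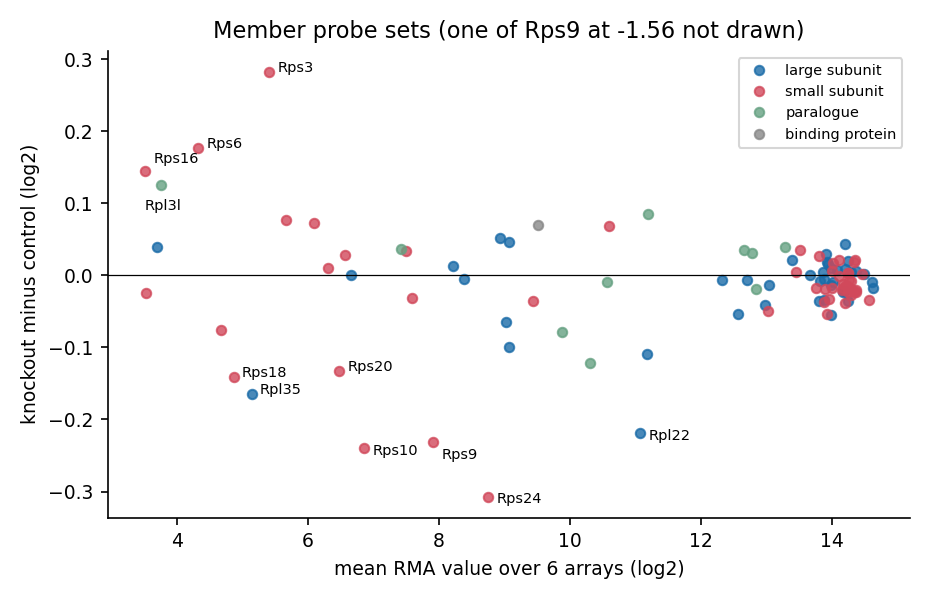
Knockout minus control (log2, y axis) against the mean over 6 arrays (log2, x axis) for the member probe sets, coloured by role; the _x_at probe set of Rps9 at -1.56 is not drawn. Probe sets above 14 lie between -0.039 and 0.044, and the named ones farther from 0 lie at lower levels, from Rps24 at -0.31 to Rps3 at 0.28.

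The paralogues of subunit proteins, some of which are known for use in particular tissues, were read beside their partners. Rpl22l1, whose level is known to be held down by Rpl22, read 13.27 ± 0.14 in controls against 13.31 ± 0.12 in knockouts (0.039, -0.21 to 0.28). Rpl7l1, a relative of Rpl7, was at 10.49, 10.29 and 10.32 in controls 1 to 3 and 10.32, 10.22 and 10.18 in knockouts 1 to 3. The difference was -0.12 (-0.33 to 0.086), with knockout 1 level with control 3, and its other probe sets gave -0.078 and 0.036. Rpl3l, a form used in heart and skeletal muscle, lay at 3.69 ± 0.066 and 3.82 ± 0.13 (0.13, -0.091 to 0.34), below the array medians.

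Rps27l, which p53 can induce, gave -0.019 (-0.41 to 0.37) in its brightest probe set and 0.031 and 0.035 in the others, and its partner Rps27 gave -0.032 (-0.21 to 0.15). Rpl39l, known from testis, gave -0.0090 (-0.28 to 0.26). Rps4l differed by 0.085 (-0.17 to 0.34), and its X-linked partner Rps4x by -0.0078 (-0.18 to 0.16). Of the 6 paralogues, 3 had higher and 3 lower values, and none passed (limma adjusted p of 0.918 or more for their brightest probe sets).

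Members on the chromosome of Fzd6 and on the X were examined apart, because the first travel with the mutant allele in part and the second differ in dose between sexes. On chromosome 15, Rpl37 differed by -0.11 (-0.44 to 0.22), Rpl8, a protein near the peptide-forming centre, by -0.0079 (-0.19 to 0.17), and Rps19bp1 by 0.070 (-0.19 to 0.33). On the X, Rpl39, which lines the exit tunnel, differed by 2.1e-05 (-0.19 to 0.19) at a level of 6.66. Rps4x was at 14.26, 14.30 and 14.33 in controls 1 to 3 and 14.29, 14.29 and 14.30 in knockouts 1 to 3. Control 2 and knockout 3, the arrays with Xist, were at 14.30 each, within the range of the other arrays.

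The genes of the family moved together from array to array and were highest on the replicate 1 array of both groups. Relative to each gene's own mean over 6 arrays, the median gene lay at 0.046, -0.036 and 0.0059 in controls 1 to 3 and at 0.034, -0.028 and -0.0090 in knockouts 1 to 3. Of the 50 genes, 40 were above their mean in control 1 and 37 in knockout 1, against 12 in control 2 and 10 in knockout 2. Control 1 was the highest control in 32 of 50 genes (64%), and in 40.8% of all genes. Knockout 1 was the highest knockout in 34 (68%), and in 40.9% of all genes. Knockout 2 was the lowest knockout in 32 (64%), against 31.9%. The genes share arrays and are not independent, so these shares are given without a test.

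**Figure D4:**
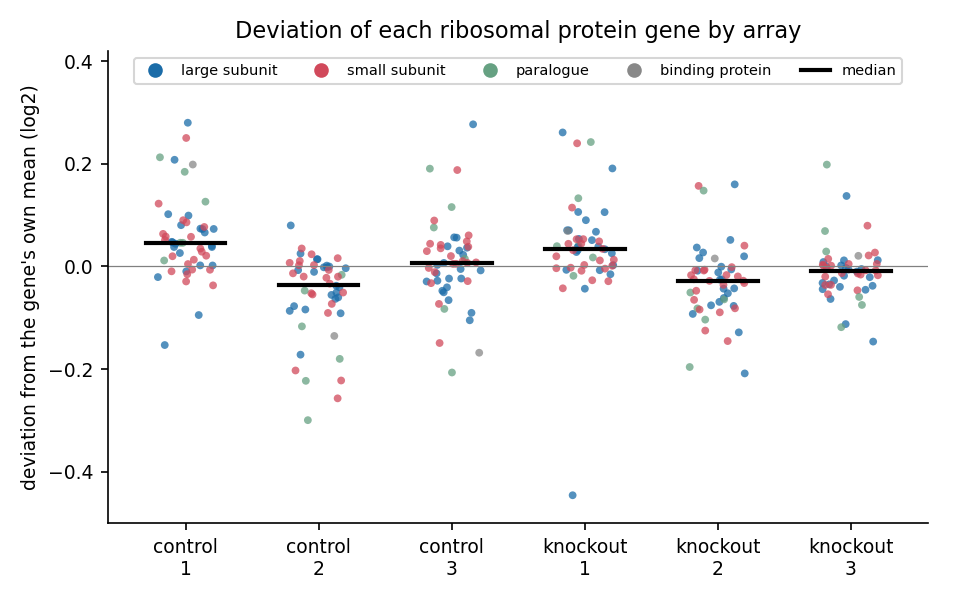
Deviation of each of the 50 ribosomal protein genes from its own mean over 6 arrays (log2, y axis) by array (x axis); points are genes coloured by role and bars their median. The medians are highest on control 1 (0.046) and knockout 1 (0.034) and lowest on control 2 (-0.036) and knockout 2 (-0.028).

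Other lists of the translation machinery shared the order of the arrays in part. The 76 mitochondrial ribosomal proteins, which serve a separate ribosome, had medians of 0.19, -0.17 and -0.0081 in controls 1 to 3 and 0.083, -0.064 and -0.0064 in knockouts 1 to 3. The 80 measured genes of ribosome biogenesis were at 0.15 in control 1 and 0.085 in knockout 1 and below 0 on the other arrays. They were lowest on control 3 (-0.062) and knockout 3 (-0.071), not on control 2 (-0.013) and knockout 2 (-0.031). The 33 measured translation factors were at 0.063, 0.036 and -0.012 in controls 1 to 3. In knockouts 1 to 3 they were at 0.0095, -0.024 and -0.027. Control 2 thus lay above 0 for translation factors and below 0 for ribosomal proteins (-0.036). Endothelial markers (6 of 6 measured) were low on the same replicate 1 arrays, with medians of -0.40 (control 1) and -0.77 (knockout 1), against 0.23 to 0.44 on the rest. Their summed log2 level ran from 47.3 to 51.0 in controls and from 44.3 to 51.2 in knockouts. Fibroblast markers (8 of 8) were at -0.14 in control 1 and -0.54 in knockout 1, and their summed level ran from 98.1 to 102.2 and from 96.0 to 102.0. Keratinocyte markers were highest on knockout 1 (0.35, 8 of 8 above their mean) and lay at 0.061 on control 1 and 0.17 on knockout 2. None of these markers is listed at 0, but the deposited values start at 2.39, so this does not show that they were detected. For the Gapdh control probe sets, the 3′ signal less the 5′ signal was -0.13 in control 1 and -0.12 in knockouts 1 and 2, and from -0.071 to 0.017 elsewhere. For Actb it was 0.35, 0.33 and 0.45 in controls 1 to 3 and 0.37, 0.34 and 0.43 in knockouts 1 to 3, and there the replicate 1 arrays did not stand apart. The part of tissue make-up or RNA quality in the array order was not tested, and in bulk tissue fewer cells of a type and less RNA per cell cannot be told apart.

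**Figure D5:**
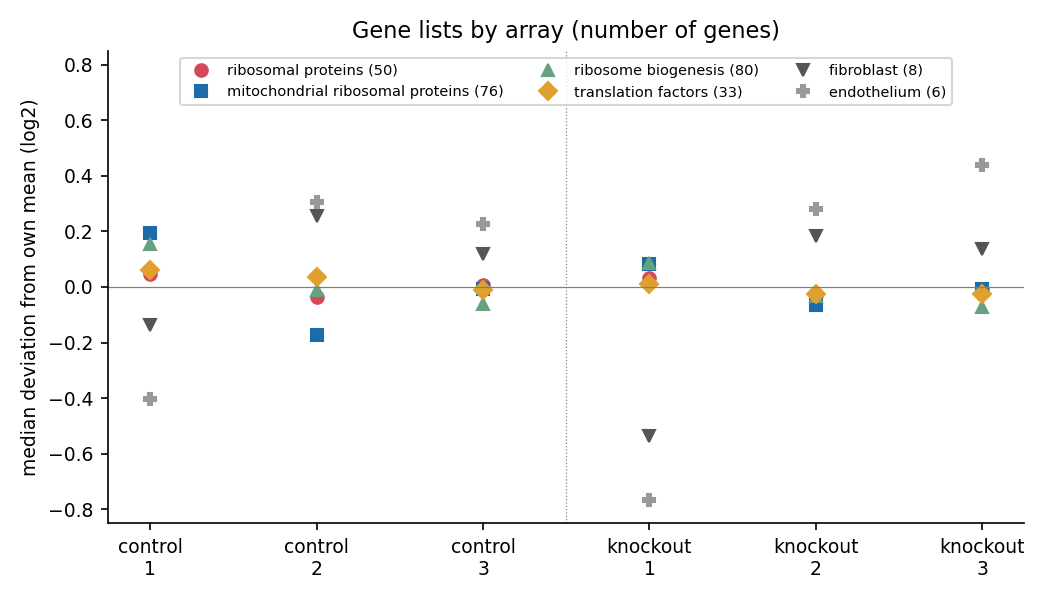
Median deviation from each gene's own mean (log2, y axis) of 6 gene lists by array (x axis), with the number of genes in brackets. Ribosomal, mitochondrial ribosomal and biogenesis genes lie above 0 on control 1 and knockout 1, where fibroblast (-0.14 and -0.54) and endothelial (-0.40 and -0.77) markers lie below. Translation factors lie above 0 on control 1, control 2 and knockout 1.

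Between genotypes the medians of these related lists also lay near 0. Single genes ranged from -0.28 to 0.15 in biogenesis, from -0.22 to 0.12 in mitochondrial ribosomal proteins and from -0.12 to 0.14 in ribosomal proteins. These lists differ in size (80, 76 and 50 genes) and in level (means of 9.52, 10.3 and 12.6 on control 1). The ranges were not matched for either, so they do not show which list was steadier. The means were -0.032 for biogenesis, -0.026 for translation factors, 0.0079 for mitochondrial ribosomal proteins and -0.0037 for ribosomal proteins. Of the mitochondrial ribosomal proteins, 43 lay higher and 33 lower (median 0.0050). Mrpl50 (-0.22, -0.59 to 0.14), Mrps26 (0.10, -0.075 to 0.28) and Mrpl43 (0.097, -0.11 to 0.30) had the smallest p. Of the biogenesis genes, 31 lay higher and 49 lower (median -0.0099). The polymerase I subunit Polr1b was at 6.58, 6.80 and 6.77 in controls 1 to 3 and 6.33, 6.64 and 6.47 in knockouts 1 to 3 (-0.23, -0.49 to 0.019), overlapping through knockout 2. Sbds, which readies the large subunit for joining, differed by 0.15 (-0.026 to 0.33) without overlap, and nucleolin, Ncl, by -0.23 (-0.57 to 0.11).

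Of 33 measured translation factors, 14 lay higher and 19 lower (median -0.018). Eif4b, a cofactor of the helicase that unwinds messenger RNA, differed by -0.16 (-0.39 to 0.066), Eif5 by -0.13 (-0.38 to 0.11), and the release factor Etf1 by -0.10 (-0.29 to 0.085). Fau, which encodes the small subunit protein S30 fused to a ubiquitin-like part and lies outside the naming rule, gave -0.0046 (-0.20 to 0.19). No gene of these lists passed limma's adjusted threshold in its brightest probe set.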

How the data were processed

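Expression of 6 arrays was deposited as RMA values (background correction, quantile normalisation, summary per probe set), a method taken from the submitters' processing notes, where no version stands. No label states the log base, and the deposited values, from 2.39 to 14.8, were read as log2. RMA makes the arrays' distributions nearly equal, so a shift of most genes would not show. Of 45101 rows, 64 array controls were left out and all other rows were kept. Names came from the platform annotation, updated by Entrez identifier to GRCm38.p6, where all 50 members matched. Of the tested probe sets 34945 had 1 symbol, 932 several and 9160 none.

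Groups came from the labels (3 control, 3 knockout). The fit used lmFit and eBayes of limma 3.58.1 under R 4.3.3 (two-sided, no covariates), Benjamini-Hochberg adjusted over 45037 probe sets, threshold 0.05, with 95% confidence intervals. The script was tested on simulated data. The small number of arrays limits the precision. The members and lists were chosen with earlier results of these data known, so lists are described by counts and medians without a test. A gene is represented by its brightest probe set (highest mean over the arrays) in counts and medians per gene.

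Named genes were the 5 highest and 5 lowest differences, the 5 genes whose probe sets disagreed most in difference and the 5 in level, members with an unadjusted p under 0.01, Rplp0, Rplp2 and Rpsa, paralogue pairs, members on chromosomes 15 and X, Rps19bp1, Fau and the 3 smallest p of each related list. Rps29, Rpl38, Xist and Eif2s3y lie outside the rule and were chosen after their values were seen or for background.

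Control and knockout arrays of equal replicate number correlated in their deviations from the group mean, at 0.568, 0.359 and 0.124. The unequal pair of control 2 and knockout 3, the arrays with high Xist, reached 0.422. As each exceeds 0.1, the arrays were treated as paired in an alternative fit, although the meaning of the number is not stated. Start-site sequences are RefSeq's. Alternatives were a variance trend, a filter on low values, further normalisation, array weights, the replicate block, arrays left out, and other choices of probe set. Python 3.11.15 and matplotlib 3.10.9 drew the figures.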

Additional observations from a re-analysis of the deposited data

How the results depend on the processing

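No member passed the adjusted threshold of 0.05 in limma under any of the 13 alternative fits. The count over all probe sets was 0 with all 6 arrays, 3 with the replicate block and 2348 at an unadjusted p under 0.05, and it was 0 without any single array. The replicate block changed no call of a member. The median difference of the ribosomal proteins lay between -0.032 and 0.0076 over the alternatives, that of the large subunit between -0.037 and 0.011, and that of the small subunit between -0.030 and 0.0075, each within the spread between arrays. For translation factors it ran from -0.048 to 0.0027 as arrays were left out. The lowest, without knockout 1, was beyond that spread, and the cause was not tested. Of 26 named genes, 9 kept 1 sign in every alternative and 17 changed sign in at least 1, always without passing the test. The _x_at probe set of Rps9 gave between -3.32 and -0.58 when single arrays were left out. The Rps24 probe set gave between -0.37 and -0.26 and the dim Rps3 probe set between 0.24 and 0.36. Signal over background was not measured here, which limits what probe sets below the array medians can show.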

Other observations

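The 110 probe sets that list a ribosomal protein together with another gene gave 37 higher and 73 lower values in the knockout, with a median difference of -0.0087. The 106 members gave 46 and 60, with -0.0079, and all 45037 probe sets gave 22796 and 22241, with 0.0018. The 110 name only 46 ribosomal protein genes and share the same arrays, so their counts are not independent readings. None of the 110 passed limma's adjusted threshold, and 1 had an unadjusted p under 0.05. Their widest range over the 6 arrays was 0.816 on the log2 scale, so none showed a contrast between arrays of the size seen in the Rps9 probe set.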
